A study of Mus musculus with 8 samples.

Results

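The transcripts followed were those of the peroxisomal oxidases Dao, Pipox, Hao1 and Hao2, the very-long-chain acyl-CoA synthetase Slc27a2, the branched-chain lipid enzymes Amacr, Phyh and Hacl1, and the epoxide hydrolase Ephx2. These 9 genes were taken by name, out of 18193 genes with a usable name on the array. They were proposed with earlier results of these data known, among them high values of Dao, Slc27a2 and Pipox in knockout, and so were selected on the measured difference between groups; those differences are given as a description with no test. Each of the 9 was measured by 1 probe set (a group of short probes for 1 transcript).

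The RNA was from white fat of the gonadal depot, taken from mice of 10 weeks on a Swiss background. There were 4 arrays from aP2-Pex5 -/- mice (knockout arrays 6, 8, 9 and 10, by the number on each label) and 4 arrays from mice labelled wild type (control arrays 1, 2, 3 and 4), all kept under normal conditions with no treatment. In the knockout, Pex5 was removed under the aP2 promoter, which belongs to the adipocyte gene Fabp4 and is also known to be active in some other cells, such as macrophages. The submitters describe these mice as lacking functional peroxisomes in adipose tissue, and the labels do not say whether animals were pooled.

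Peroxisomes house oxidases that pass electrons straight to oxygen and so make hydrogen peroxide, which catalase removes in the same organelle. Enzymes of the matrix are made in the cytosol and carried in by the receptor Pex5, which reads a short signal at the end of most of them, while Pex7 helps Pex5 to carry the few, such as Phyh, with a signal at the start. D-amino acid oxidase (Dao) and the sarcosine and pipecolate oxidase (Pipox) are best known from kidney and liver, and the 2-hydroxy acid oxidases Hao1 and Hao2 from liver and kidney. Loss of import removes such enzymes from the organelle, and the arrays measure their mRNA and not the proteins.

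All values are on the log2 scale after RMA, so that 1 unit is a factor of 2, and they compare arrays for 1 probe set, not different genes. The adipocyte markers were high on every array, with adiponectin (Adipoq) between 14.43 and 14.54 in knockout and between 14.50 and 14.63 in control. Pex5 itself read 9.50, 9.27, 9.38 and 9.30 on knockout arrays 6, 8, 9 and 10, against 9.52, 9.58, 9.34 and 9.06 on control arrays 1 to 4. The labels do not say which part of the gene was removed or where the probes lie, so this probe set does not check the genotype. Among the 18193 genes, 0 passed limma's test between knockout and control at an adjusted p under 0.05 (0%), 466 had an unadjusted p under 0.05, and an ordinary pooled-variance test called 0 as well (511 at that unadjusted level). The groups did not overlap for 310 genes (1.7%). Of the 9 members, 0 separated the groups, and 5 had a higher and 4 a lower mean in knockout, with a median difference of 0.02 against -0.0082 over all genes. The rule that chose the members used this contrast, so nothing is read from that count.

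Dao, Pipox and Slc27a2 made up the first pattern, with means 1.95-fold to 2.52-fold higher in knockout that rested largely on 1 control array. Dao, which oxidises neutral D-amino acids such as D-alanine and D-serine, read 9.38, 9.46, 8.76 and 9.06 on knockout arrays 6, 8, 9 and 10, against 9.26, 7.55, 5.36 and 9.14 on control arrays 1 to 4. Control arrays 1 and 4 lay inside the knockout range, control 2 below it, and control 3 lowest of all. The means were 9.17 ± 0.32 in knockout and 7.83 ± 1.82 in control (SD, n = 4 each), a difference of 1.34 ± 0.92 (SE). Without control 3 the difference was 0.51.

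Pipox, which oxidises sarcosine and L-pipecolate, read 9.14, 9.44, 8.28 and 8.60 in knockout, against 9.13, 7.41, 5.90 and 9.17 in control, the arrays being listed as for Dao. Its means were 8.87 ± 0.52 in knockout and 7.90 ± 1.57 in control (SD, n = 4 each), a difference of 0.96 ± 0.83 (SE), or 0.30 without control 3. Again controls 2 and 3 were the lowest arrays, and the other controls were within the knockout range.

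Slc27a2, also called FATP2, activates very-long-chain and branched fatty acids and takes part in fatty acid uptake. It read 9.50, 9.75, 8.46 and 9.06 in knockout, against 10.00, 7.83, 5.43 and 9.36 in control. Control 1 was here the highest of the 8 arrays, and control 3 the lowest. The means were 9.19 ± 0.57 in knockout and 8.15 ± 2.03 in control (SD, n = 4 each), a difference of 1.04 ± 1.05 (SE), or 0.13 without control 3 and 1.65 without control 1. From the lowest to the highest array Slc27a2 spanned 23.8-fold, Dao 17.2-fold and Pipox 11.7-fold. These ranges were wider than those of 99.6%, 99.4% and 99.0% of all genes. The 3 genes were proposed with their high values in knockout known, a choice that itself favours a wide range.

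**Figure D1:**
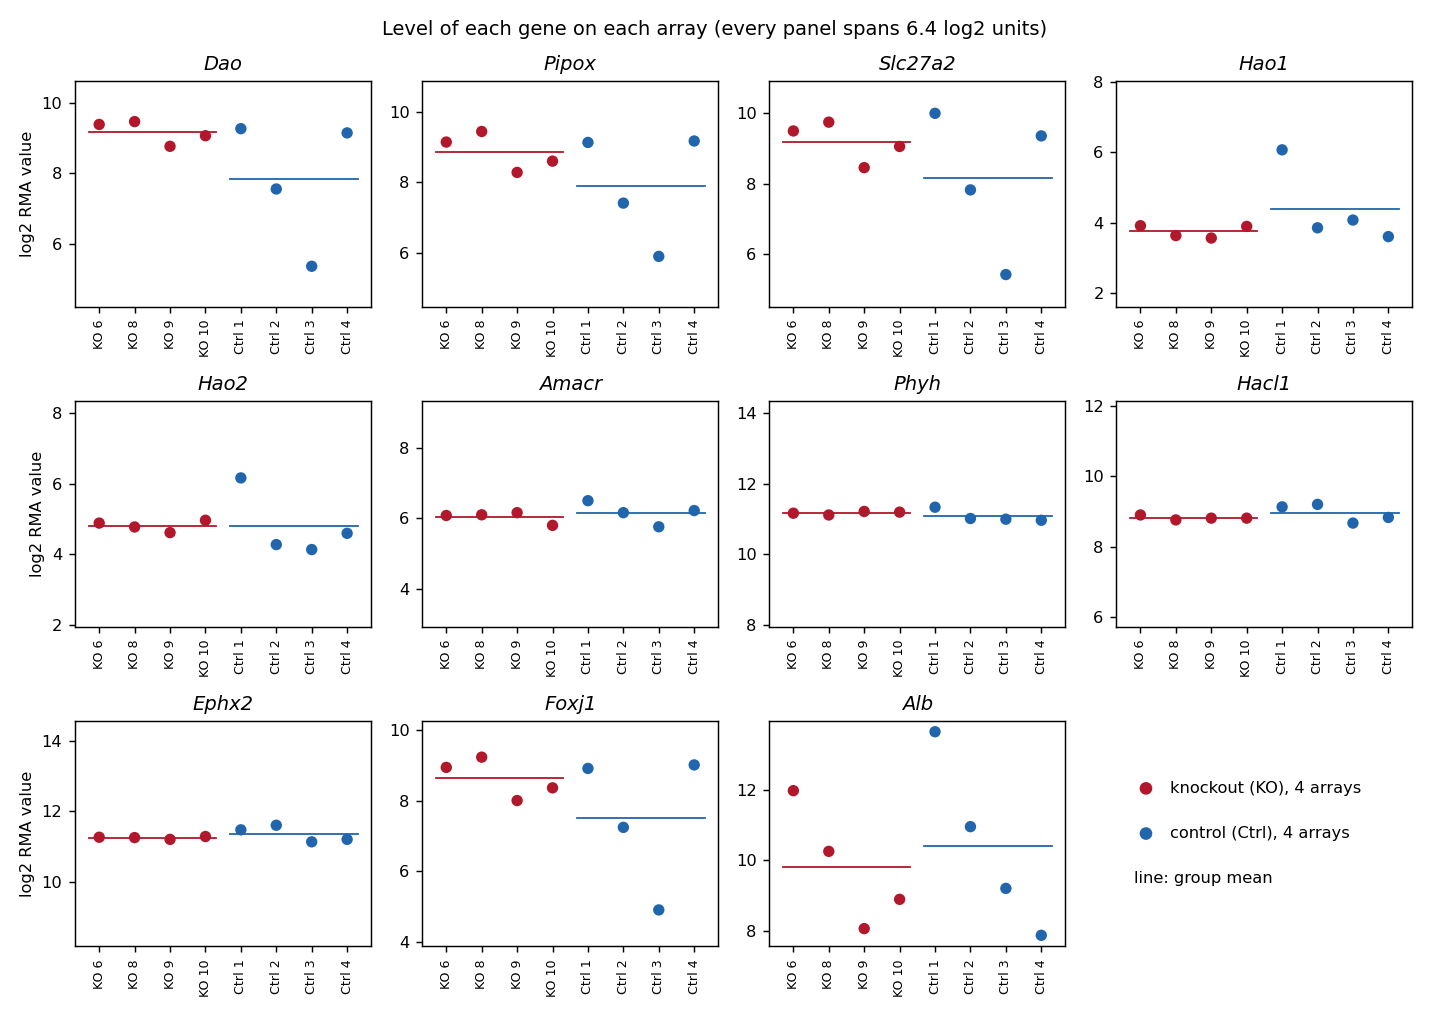
Level of the 9 members and of Foxj1 and Alb on each of the 8 arrays, as log2 RMA values, with knockout arrays in red, control arrays in blue and a line at each group's mean. Dao, Pipox and Slc27a2, with Foxj1, are low on control arrays 2 and 3, Hao1 and Hao2 are high on control array 1, and Amacr, Phyh, Hacl1 and Ephx2 have smaller ranges than those 5 members.

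Foxj1, a transcription factor that switches on the genes of motile cilia, was low on the same controls. It read 8.95, 9.24, 8.01 and 8.37 on knockout arrays 6, 8, 9 and 10, against 8.92, 7.25, 4.91 and 9.02 on control arrays 1 to 4. Pipox and Foxj1 ranked the 8 arrays identically. For Foxj1 the difference was 1.11 ± 1.0 (SE), and 0.24 without control 3. Over the list of 12 motile cilia genes, 11 were lowest on controls 2 and 3, where 10.5% of all genes and 33.9% of the 2313 genes with a range of at least 1 unit had those arrays lowest. The list includes Foxj1 itself and was chosen with earlier results of these data known, so the count is a description. The mean level of the list was 6.82 to 7.47 on knockout arrays and 5.58 to 7.25 on control arrays. It contained the axonemal genes Ccdc113 (difference 1.05) and Rsph1 (0.94), as well as Mlf1 (0.75). With Foxj1 as a covariate, which was added after the values were known, the differences were 0.31 for Dao, 0.05 for Pipox and -0.12 for Slc27a2. Foxj1 had a Pearson r of 0.989 with Dao, 0.994 with Pipox and 0.989 with Slc27a2 over the 8 arrays. A covariate so alike takes out most of a difference whatever its source, so nothing is read from these fits. With Alb as a covariate, also added afterwards, the differences were 1.46, 1.08 and 1.23. In whole tissue, fewer cells of a type and less RNA per cell cannot be told apart. Whether RNA of ciliated cells made up the Dao, Pipox and Slc27a2 signal was not tested.

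Single genes of other marker lists were low on the same controls. Lrp2, an endocytic receptor of the kidney tubule and of other absorptive epithelia, read 9.78, 9.85, 8.96 and 9.55 in knockout, against 9.52, 8.0, 6.29 and 9.53 in control. Of the 11 kidney genes, 7 were higher and 4 lower. The phosphate carrier Slc34a1 read 6.23, 5.96, 5.92 and 5.95 in knockout, against 5.90, 5.49, 5.50 and 5.86 in control, a difference of 0.33. In limma it was the 1 kidney gene with an unadjusted p under 0.05, a level that 466 of all 18193 genes reached. Its adjusted p was 0.9995. Umod, at 4.27, 4.96, 4.06 and 3.93 in knockout and 3.74 to 4.17 in control, differed by 0.37. Cubn, the partner receptor of Lrp2, differed by 0.26 and Kap by -0.02. Slc5a12, at 3.66 to 3.75 in knockout and 3.60 to 3.75 in control, differed by -0.01. Umod and Slc5a12 lay near the low end of the scale, where no detection call tells signal from background. The transcription factor Pax8 read 8.43, 8.86, 7.77 and 8.34 in knockout, against 8.80, 6.82, 4.84 and 8.48 in control. Greb1, an oestrogen-regulated gene, read 9.69, 10.12, 9.13 and 9.85 in knockout, against 9.35, 7.92, 4.92 and 9.57 in control. The oestrogen receptor Esr1 differed by 0.59 and the progesterone receptor Pgr by 0.52. All 4 come from the list of ovary, oviduct and uterus genes, of which 9 of 11 were higher and 2 lower. In that list 5 of 11 had controls 2 and 3 lowest, as had 5 of the 11 kidney genes. Others of the list did not, among them Msx1, which was highest on control 3 at 7.32. Fshr lay between 4.90 and 5.18 in knockout and between 4.85 and 5.16 in control. The source of these values was not tested.

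**Figure D2:**
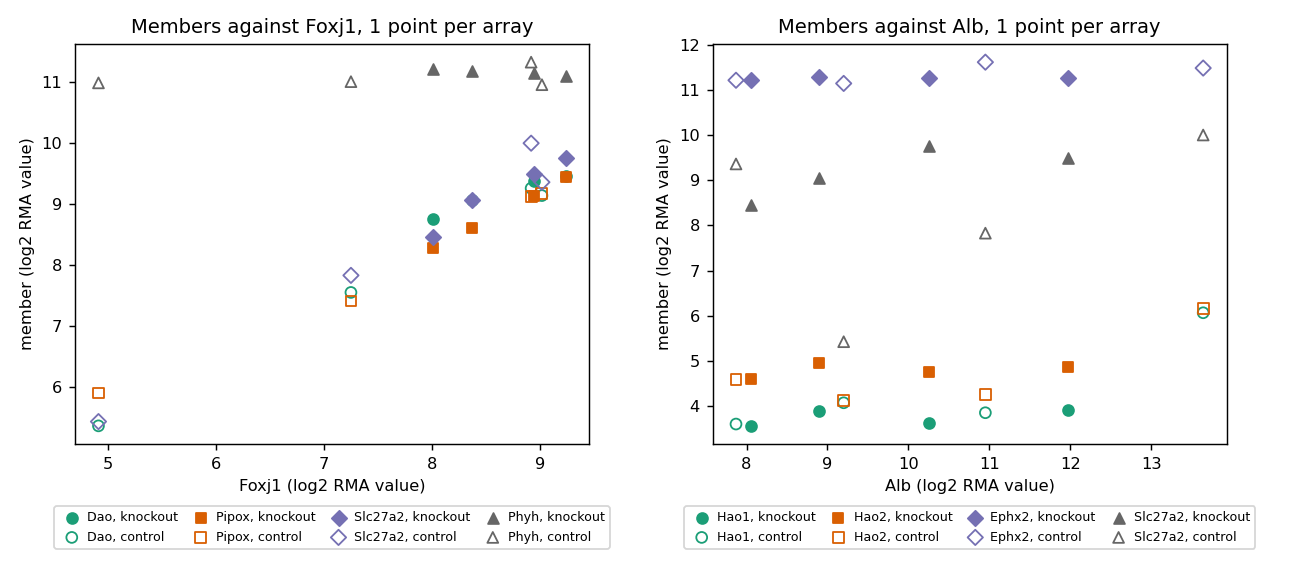
Members plotted against Foxj1 (left) and Alb (right), 1 point per array, all as log2 RMA values, with filled symbols for knockout and open symbols for control. Dao, Pipox and Slc27a2 climb with Foxj1 over both groups (Pearson r 0.989, 0.994 and 0.989), and Phyh follows it less closely (0.451) and over a smaller range. Hao1 and Hao2 are highest on the array with the highest Alb.

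The genes with the closest likeness to these members over the 8 arrays were sought among the 2312 other genes with a range of at least 1 unit, as a description without a test, since all 8 points share the same arrays and the same low control 3. For Dao the highest Pearson r belonged to Bex4 (0.998), Cfap52 (0.998), Mt3 (0.997, also without control 3 at 0.996), Ddc (0.997) and Clrn3 (0.997). Mt3 is a metallothionein best known from the brain, Ddc is aromatic L-amino acid decarboxylase and Cfap52 a protein of cilia and flagella. Mt3 read 10.21, 10.41, 9.38 and 9.69 in knockout, against 9.97, 7.90, 5.69 and 9.95 in control. For Pipox they were Ihh (0.999), the secreted signal Indian hedgehog, with Sphk1 (0.999), Rab17 (0.998), Cfap54 (0.998) and Susd4 (0.998). For Slc27a2 they were Defb29 (0.996), a beta-defensin, with Tmem30b (0.996), Sec14l4 (0.994), Slc25a13 (0.994) and the tight junction gene Cldn7 (0.993). With the lowest array left out these 15 values lay between 0.974 and 0.998.

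Since Dao, Pipox and Slc27a2 varied together, the 250 bases before a start site of each are shown, from RefSeq on GRCm38.p6, 5′ to 3′ on the strand of the gene. Capitals mark AGGTCA on either strand, the half-site of nuclear receptors such as the PPARs. Dao has 3 start sites in that table, and the one with a match is given.
Dao, chr5:114003634-114003883, + strand: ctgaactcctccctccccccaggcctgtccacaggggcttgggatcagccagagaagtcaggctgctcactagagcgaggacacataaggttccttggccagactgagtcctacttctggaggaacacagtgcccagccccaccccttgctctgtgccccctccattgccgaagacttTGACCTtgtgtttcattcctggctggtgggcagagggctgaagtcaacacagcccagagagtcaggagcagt
Pipox, chr11:77893873-77894122, - strand: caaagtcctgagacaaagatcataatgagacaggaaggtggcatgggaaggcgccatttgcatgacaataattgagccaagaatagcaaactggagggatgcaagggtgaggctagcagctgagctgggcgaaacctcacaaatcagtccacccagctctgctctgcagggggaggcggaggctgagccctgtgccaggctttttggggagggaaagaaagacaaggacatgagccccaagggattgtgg
Slc27a2, chr2:126552774-126553023, + strand: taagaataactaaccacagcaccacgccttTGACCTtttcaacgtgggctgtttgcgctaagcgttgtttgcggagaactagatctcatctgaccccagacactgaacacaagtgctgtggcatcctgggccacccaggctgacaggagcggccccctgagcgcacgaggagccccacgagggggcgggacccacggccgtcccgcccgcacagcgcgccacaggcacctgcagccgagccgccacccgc
AGGTCA was present, on the reverse strand, in the Dao window, 72 bases before the start, and in the Slc27a2 window, 220 bases before it. Of all 32851 such windows, 14% held AGGTCA. That share is per window, while the Dao window was picked for its match out of 3, and the others held none. The repeat AGGTCANAGGTCA, which contains it and occurs in 0.0335% of windows, was in no window of the 3 genes. The same held for GTTGCC, a half-site of the RFX factors of ciliated cells, found in 10.4% of windows. These matches are descriptions of the letters and not sites of binding.

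Hao1 and Hao2 formed a second pattern, with a high value on control array 1. Hao1, the liver glycolate oxidase, read 3.92, 3.64, 3.57 and 3.90 on knockout arrays 6, 8, 9 and 10, against 6.07, 3.86, 4.08 and 3.61 on control arrays 1 to 4. Every array but control 1 lay within a narrow band near the low end of the scale, where no detection call tells signal from background. The means were 3.75 ± 0.18 in knockout and 4.41 ± 1.13 in control (SD, n = 4 each), a difference of -0.65 ± 0.57 (SE), and -0.10 without control 1.

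Hao2, which oxidises longer 2-hydroxy acids, read 4.88, 4.77, 4.61 and 4.96 in knockout, against 6.16, 4.27, 4.13 and 4.59 in control. Hao2 was highest on control 1 and lowest on controls 2 and 3. Outside control 1 its values lay between 4.13 and 4.96, near the low end of the scale as for Hao1. Its means were 4.81 ± 0.15 in knockout and 4.79 ± 0.93 in control (SD, n = 4 each), a difference of 0.02 ± 0.47 (SE), which was 0.48 without control 1 and -0.20 without control 3.

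Albumin (Alb), made by the liver, was highest on the same array. It read 11.97, 10.25, 8.06 and 8.89 on knockout arrays 6, 8, 9 and 10, against 13.64, 10.95, 9.20 and 7.87 on control arrays 1 to 4. Of the 13 liver genes measured, 11 were highest on control 1, where 14.2% of all genes and 20.8% of those with a range of at least 1 unit had their highest value. This count too is a description, since the list includes Alb and was chosen with earlier results of these data known. The mean level of that list was 6.97 to 9.11 in knockout and 6.92 to 10.97 in control. Transthyretin (Ttr) read 9.81, 8.51, 5.25 and 7.78 in knockout, against 11.94, 9.24, 8.53 and 6.17 in control. The liver list differed in median by -0.83, with 0 of 13 past the limma test. A few epididymis genes were also highest on control 1, among them the defensin gene Defb2, at 7.52 there against 4.72 to 4.96 in knockout and 4.65 to 4.93 on the other controls. The part of liver RNA, or of RNA from another organ, in the Hao1 and Hao2 values was not tested.

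The 250 bases before the start sites of Hao1 and Hao2 are shown in the same way, with capitals for GTTAAT on either strand, a half-site of the HNF1 factors of liver and kidney.
Hao1, chr2:134554353-134554602, - strand: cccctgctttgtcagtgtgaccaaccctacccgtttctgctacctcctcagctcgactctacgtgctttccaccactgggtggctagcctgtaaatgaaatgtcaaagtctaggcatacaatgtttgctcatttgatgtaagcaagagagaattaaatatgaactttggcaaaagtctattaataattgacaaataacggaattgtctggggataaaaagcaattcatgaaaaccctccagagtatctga
Hao2, chr3:98893231-98893480, - strand: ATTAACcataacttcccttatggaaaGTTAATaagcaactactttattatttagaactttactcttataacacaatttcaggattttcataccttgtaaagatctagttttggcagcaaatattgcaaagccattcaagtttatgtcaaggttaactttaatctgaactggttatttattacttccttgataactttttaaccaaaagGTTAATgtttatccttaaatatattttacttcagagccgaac
The Hao2 window held GTTAAT at 3 places, 2 on the strand of the gene, which begin 224 and 42 bases before the start, and 1 on the other strand, at the far end, 250 bases before it. The Hao1 window held no GTTAAT, and neither window held AGGTCA or GTTGCC. Of all windows, 6.43% held GTTAAT, and the windows printed for Dao, Pipox and Slc27a2 did not.

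Amacr, Phyh, Hacl1 and Ephx2 made up the third group, with smaller ranges over the 8 arrays than the other 5 members. Against all genes, the ranges of this group were wider than those of 78.1% for Amacr, 60.0% for Hacl1, 52.4% for Ephx2 and 34.0% for Phyh. Only the range of Phyh (0.37) was below the median range of all genes (0.46). Phyh, which starts the breakdown of phytanic acid by hydroxylating phytanoyl-CoA, read 11.16, 11.11, 11.21 and 11.19 in knockout, against 11.33, 11.01, 10.99 and 10.96 in control. Of the controls, 3 lay below all knockouts and control 1 above them. The means were 11.17 ± 0.04 in knockout and 11.07 ± 0.17 in control (SD, n = 4 each), a difference of 0.10 ± 0.09 (SE).

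Hacl1, the lyase that shortens the hydroxylated phytanoyl-CoA by 1 carbon, read 8.90, 8.76, 8.81 and 8.81 in knockout, against 9.13, 9.20, 8.67 and 8.83 in control. Controls 1 and 2 were above every knockout array and control 3 below. The difference was -0.14 ± 0.13 (SE). Amacr, the racemase that turns 2-methylacyl-CoA into the form that beta-oxidation accepts, read 6.08, 6.10, 6.16 and 5.80 in knockout, against 6.50, 6.16, 5.76 and 6.22 in control, a difference of -0.13 ± 0.17 (SE).

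Ephx2, the soluble hydrolase that opens epoxides of fatty acids and sits in both cytosol and peroxisome, read 11.27, 11.26, 11.21 and 11.29 in knockout, against 11.48, 11.61, 11.14 and 11.21 in control. Its difference was -0.10 ± 0.11 (SE), with the knockout arrays inside the control range. From the lowest to the highest array these 4 genes spanned 1.29-fold (Phyh) to 1.67-fold (Amacr). Leaving out 1 array at a time took Phyh from 0.06 (without control 4) to 0.18 (without control 1) and Amacr from -0.26 (without control 3) to -0.01 (without control 1). Hacl1 ran from -0.23 (without control 3) to -0.06 (without control 2), and Ephx2 from -0.17 (without control 3) to -0.02 (without control 2). All 9 members had a larger SD among controls than among knockouts, as had 66.7% of all genes. For the third group the SD was 0.03 to 0.16 in knockout and 0.17 to 0.30 in control.

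**Figure D3:**
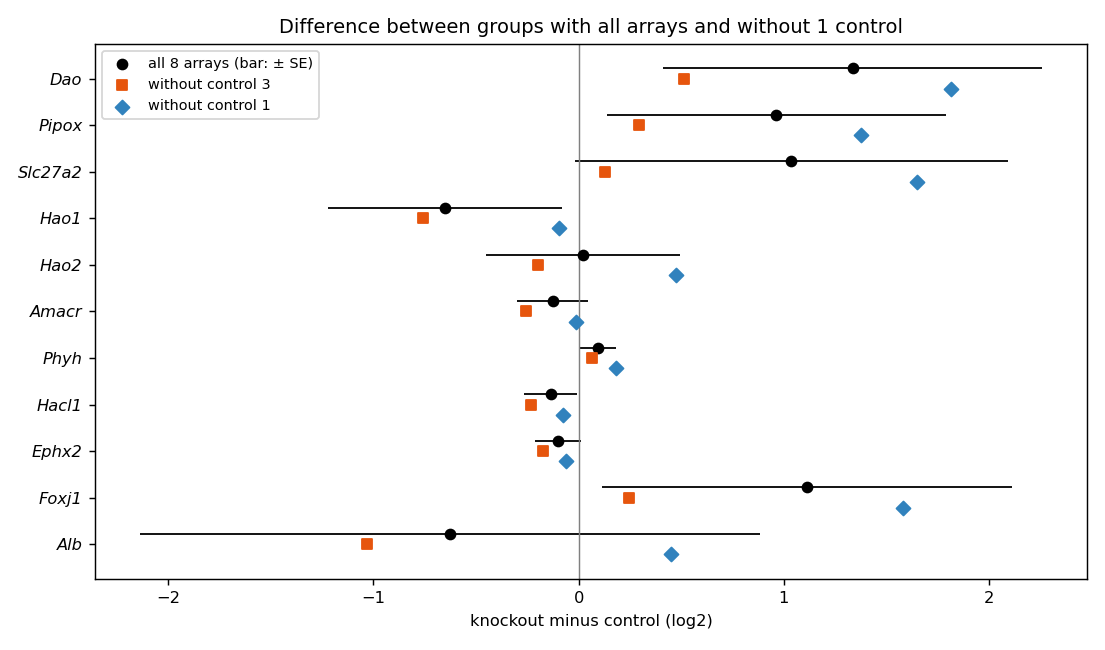
Difference between groups (knockout minus control, log2) for the 9 members, Foxj1 and Alb, with all 8 arrays (black, bar ± SE), without control 3 (orange) and without control 1 (blue). Leaving out control 3 takes Dao to 0.51, Pipox to 0.30 and Slc27a2 to 0.13, and leaving out control 1 takes Hao1 to -0.10.

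The arrays also fall into 2 sets by the lower quartile of their values, knockouts 6 and 8 with controls 1 and 2 (4.77 to 4.79) and knockouts 9 and 10 with controls 3 and 4 (4.83 to 4.85). These sets are also the first 4 and the last 4 samples as listed, an order in which control and knockout alternate. The labels give no scan date. With the set as a block the difference of Dao was 1.34, as without it, since each set holds 2 arrays of each group. Within the set of knockouts 6 and 8 the difference was 1.02 for Dao, 1.02 for Pipox and 0.71 for Slc27a2, and within the set of knockouts 9 and 10 it was 1.66, 0.91 and 1.36. Each set holds 1 of the 2 low controls. In the same order of sets, the differences were -1.19 and -0.11 for Hao1, and -0.38 and 0.42 for Hao2. Within the set of knockouts 9 and 10, Hacl1 (0.06) and Ephx2 (0.08) were slightly higher in knockout, and in the other set lower, at -0.33 and -0.28. Phyh was -0.04 in the set of knockouts 6 and 8 and 0.23 in the other.

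In 7 lists of genes that work with these enzymes, 54 of 61 were measured, of which 23 had a higher and 31 a lower mean in knockout (median -0.02). The share with a lower mean was 57.4%, against 53.3% of all genes. Of the 54 genes, 0 passed the limma test (smallest adjusted p = 0.9995), and 2, Ehhadh and Acaa1a, had an unadjusted p under 0.05. Over all 18193 genes, 466 had such a p. Controls 2 and 3 were the lowest arrays, as for Dao, for 4 of the 54 (7.41%, against 10.5% of all genes), and control 1 was the highest, as for Hao1, for 21 (38.9%, against 14.2%). The lists were chosen with earlier results of these data known.

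Of 5 other peroxisomal oxidases measured, 2 were higher and 3 lower. Urate oxidase (Uox), a liver enzyme of purine breakdown, read 6.53, 5.92, 5.55 and 5.86 in knockout, against 8.08, 5.79, 5.52 and 5.63 in control, highest on control 1 like Hao1. The acyl-CoA oxidase Acox2 read 6.72, 6.60, 6.23 and 6.39 in knockout, against 7.09, 6.23, 6.04 and 6.56 in control, a difference of 0.01, and was also highest on control 1. Acox3 (difference 0.19) ran from 7.85 to 8.56 in knockout and from 7.86 to 8.52 in control, and Acoxl differed by -0.04. Of 11 genes of glyoxylate, sarcosine and hydroxyproline use, which share substrates with Hao1 and Pipox, 5 were higher and 6 lower, and 7 had their highest value on control 1. Glycine N-methyltransferase (Gnmt), which makes sarcosine, read 7.14, 6.93, 6.30 and 6.50 in knockout, against 9.08, 6.86, 6.86 and 6.30 in control. Dmgdh, which produces sarcosine from dimethylglycine, differed by -0.34, Gamt of creatine synthesis by -0.28 and the glyoxylate transaminase Agxt by -0.21.

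Among 10 other fatty acid activating genes, 4 were higher and 6 lower. Acsbg1, an acyl-CoA synthetase of the bubblegum family that also accepts very long chains, read 9.60, 9.84, 9.07 and 9.55 in knockout, against 9.31, 7.85, 5.50 and 9.79 in control, in the pattern of Dao. Slc27a5, the liver bile acid and fatty acid synthetase, read 4.74, 4.54, 4.43 and 4.62 in knockout, against 6.76, 4.75, 4.51 and 4.33 in control, in the pattern of Hao1. Slc27a4 differed by -0.16 and Acsl4 by -0.16. Slc27a1, the fatty acid transport protein typical of fat and muscle, ran from 10.01 to 10.61 in knockout and from 9.86 to 10.59 in control, with a difference of 0.04.

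Of 11 partners in branched-chain and alpha oxidation, 2 were higher and 9 lower (median -0.06), where 53.3% of all genes were lower. This list too was chosen with earlier results known, so the count is a description. Ehhadh, the bifunctional enzyme of peroxisomal beta-oxidation, read 9.39, 9.36, 9.17 and 9.18 in knockout, against 10.23, 9.86, 9.24 and 9.76 in control. Only control 3 fell within the knockout range, and the difference was -0.49 ± 0.21 (SE; limma adjusted p = 0.9995). The thiolase Acaa1a differed by 0.16, the sterol carrier protein and thiolase gene Scp2 by -0.15 and the D-bifunctional enzyme Hsd17b4 by -0.15.

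Of 7 genes that handle hydrogen peroxide or epoxides, 5 were higher and 2 lower. Catalase (Cat), which removes the peroxide the oxidases make, differed by -0.13, Gstk1 by -0.05, the microsomal epoxide hydrolase Ephx1 by 0.05 and Gpx1 by 0.04. Of 5 genes of D-amino acid supply, 4 were higher, with the neutral amino acid carrier Slc1a4 at 0.22, the D-tyrosyl-tRNA deacylase Dtd1 at 0.12, and the carriers Slc7a10 at 0.12 and Slc1a5 at 0.07. Of 5 import receptors and docking genes 1 was higher and 4 lower, Pex5l at 0.07, Pex13 at -0.07, Pex7 at -0.04 and Pex14 at -0.02.

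**Figure D4:**
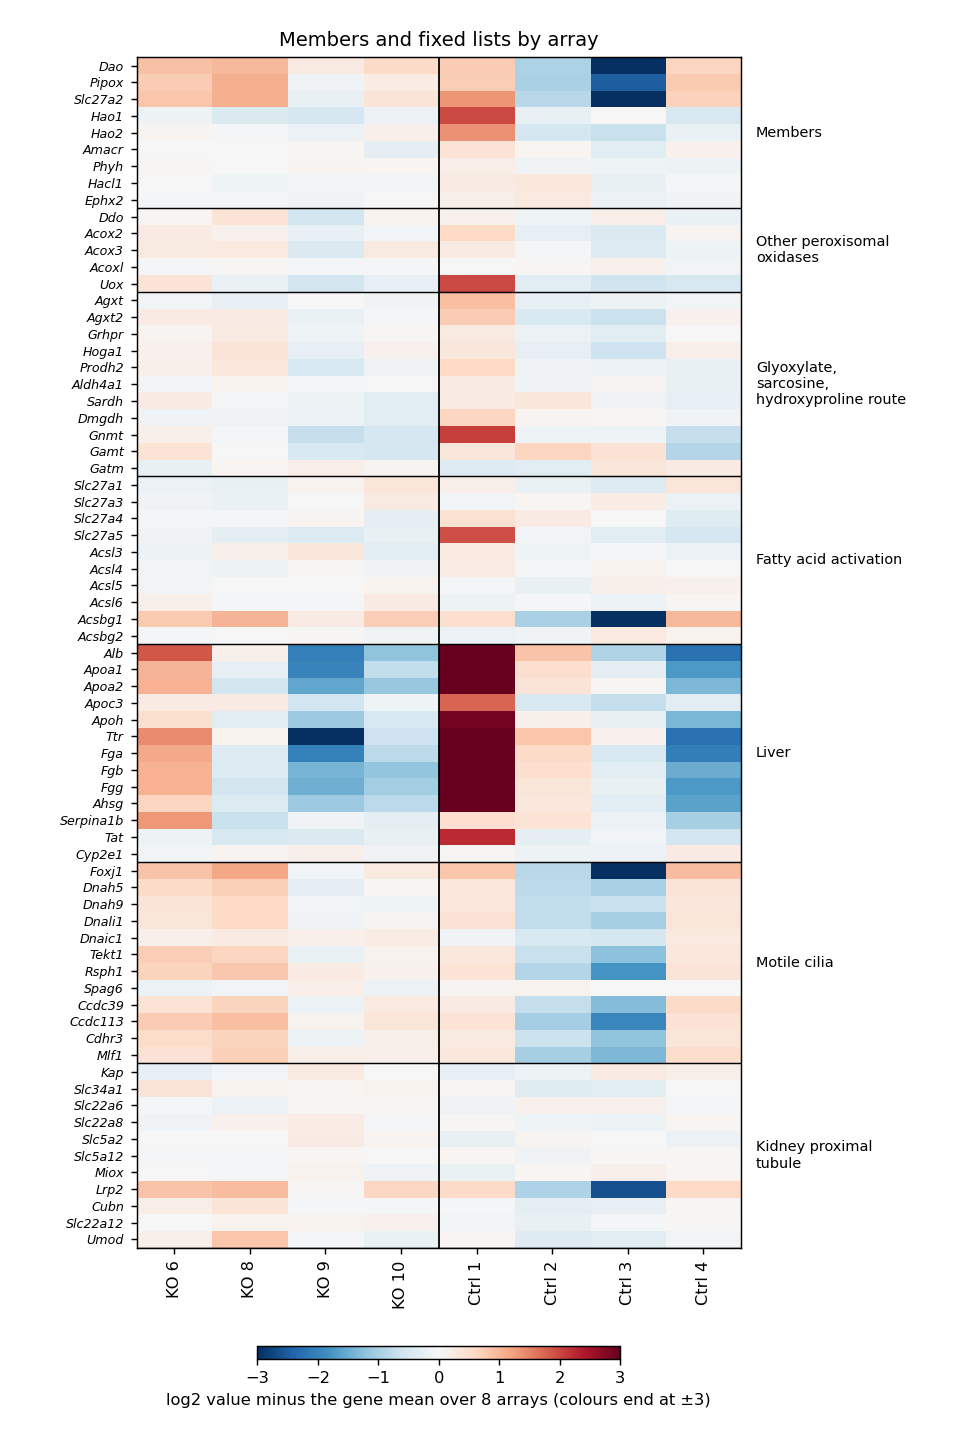
Log2 value minus the gene's mean over the 8 arrays (red above, blue below, colours end at ±3) for the 9 members and 6 of the fixed lists, knockout arrays left of the black line and control arrays right of it. Acsbg1, Lrp2 and most motile cilia genes share the low control 3 of Dao, Pipox and Slc27a2, and Uox, Gnmt, Slc27a5 and most liver genes share the high control 1 of Hao1 and Hao2.

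Markers of further organs were high on other arrays. Of 10 epididymis genes, 6 were highest on knockout 8, where Lcn8 read 11.02 against 4.39 to 4.75 on the other knockouts and 4.58 to 4.72 in control. On control 1, 3 of the 10 were highest, namely Defb2, Spint4 (6.62, against 4.36 to 4.50 in knockout and 4.34 to 4.75 on the other controls) and Lcn5 (6.64), which read 6.48 on knockout 10. The spermatid gene Tnp1 read 10.11 on knockout 9, 8.96 on control 3 and 6.94 on control 4, and seminal vesicle genes were high on knockout 10 and control 3, where Svs2 read 5.39 and 6.76. The mean level of the epididymis list was 4.73 to 7.61 in knockout and 4.84 to 5.40 in control. For spermatid genes it was 5.12 to 8.43 in knockout and 5.27 to 7.99 in control, for seminal vesicle genes 3.94 to 5.53 in knockout and 3.90 to 6.80 in control, and for kidney genes 5.88 to 6.02 in knockout and 5.53 to 5.89 in control. The ranges of the ovary, oviduct and uterus list were 6.56 to 6.73 in knockout and 5.63 to 6.70 in control. Control 3, lowest for Dao, was at the top among controls for macrophage (11.01) and mesothelial (9.59) genes. In knockout those lists ran from 10.09 to 10.61 and from 7.64 to 9.46, and in control from 10.39 to 11.01 and from 8.67 to 9.59. Of 6 macrophage genes, 5 had a lower and 1 a higher mean in knockout. Adipocyte genes ran from 13.77 to 13.97 in knockout and from 13.64 to 13.94 in control, endothelial genes from 9.13 to 9.57 in knockout and from 9.07 to 9.77 in control, and fibroblast genes from 10.15 to 10.83 in knockout and from 10.17 to 10.66 in control. The marker lists were chosen with earlier results of these data known. Of the 97 marker genes measured, 0 passed the limma test and 6 had an unadjusted p under 0.05. Over all 18193 genes, 466 had such a p. The macrophage list held 2 of the 6, Adgre1 (difference -0.44) and Cd68 (-0.37), each with a limma adjusted p of 0.9995.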

How the data were processed

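RNA of 8 tissue samples, 4 knockout and 4 control, was measured on 1 Affymetrix mouse array each. Per the submitters' processing notes, RMA produced the table (version not given in the sources used here). Deposited values are log2 levels, from 2.71 to 14.8 over 45037 probe sets, with 64 control probe sets left out. RMA compresses low values, and no detection calls are in the table. By the platform annotation, 1 gene symbol belonged to each of 34945 probe sets, several to 932 and none to 9160; only the first kind was named, and 34741 matched RefSeq genes by Entrez number. Each gene was taken as the probe set with the highest mean, giving 18193 genes.

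The groups were compared by limma 3.58.1 under R 4.3.3 (lmFit, eBayes, no covariate), with p-values adjusted after Benjamini-Hochberg over the 18193 genes, threshold 0.05; the step was tested on simulated data. The SE of a difference comes from the SD of the groups. The members, lists and motifs were chosen with earlier results of these data known. The text names all members, Foxj1 and Alb, the 5 genes most like each of the 3 members with the widest range, and, of each list, up to 4 genes with the largest difference. Adipoq, Pex5, Kap, Slc5a12, Slc27a1, Defb2, Spint4, Lcn5, Msx1 and Fshr were added after their values were seen. Alternatives were other variance models, filters, normalizations, probe set rules and weights, the array set, and leaving out each array. With 4 arrays per group, their number limits the precision, and since the labels do not state that each array is a separate animal, the p-values cover only the spread among these arrays, which may be technical. Figures were drawn with matplotlib 3.10.9.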

Additional observations from a re-analysis of the deposited data

Results flagged for a closer look

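Phyh on control array 1 stood apart from its group: it read 11.33, where the other 3 controls lay between 10.96 and 11.01. The gap to the nearest was 0.856 of the whole range of the group, above the critical value of Dixon's test. The 4 knockout arrays lay between 11.11 and 11.21. Control 1 is also the array with the highest Alb (13.64). This was the 1 group so marked of 22 examined (9 members, Alb and Foxj1 in each group), and chance marks about 1 in 20 groups.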

How the results depend on the processing

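The count of genes past the limma test was 0 with all arrays and 0 under every alternative run: a variance trend with robust estimation, dim genes left out, array medians subtracted, probe sets averaged per gene, single probe sets, weighted arrays, an ordinary pooled-variance test, the array set as a block, each set alone, and each of 8 fits without 1 array. At an unadjusted p under 0.05 these gave 206 to 1566 genes. The 206 were out of 9097, with dim genes left out, and the 1566 out of 18193, without control 4. Single probe sets gave 1139 of 45037. Over 16 alternatives the difference of Dao ran from 0.31 (Foxj1 as a covariate) to 1.81 (without control 1), that of Pipox from 0.05 to 1.39, and that of Hao1 from -1.19 to -0.10, with no change of direction; Amacr kept its direction too, from -0.28 to -0.01. Slc27a2 ran from -0.12 to 1.65 and turned lower with Foxj1 as a covariate. Hao2 changed direction in 9 of 16, from -0.38 to 0.48. Averaged probe sets and the array set as a block are counted among the 16 but could not move any member. Each member has 1 probe set, and each array set holds 2 arrays of each group. Phyh, Hacl1 and Ephx2 each changed direction in 1, a set of 2 arrays per group fitted alone. Likeness as Spearman's rho was 0.905 to 1. No paired analysis was run, because the labels name no pairs and the groups share no replicate number. Each member has 1 probe set, so no other probe set could be tried.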
